A study of Fundulus heteroclitus with 20 samples.

Results

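The Myc family was followed in the midbrain/diencephalon of adult mummichogs (Fundulus heteroclitus) at 1 h post-lesion. Its members were the genes of the deposited count table whose description held the words L-Myc, c-myc, N-myc proto-oncogene, transcriptional regulator Myc, myc-associated (or MYC associated) factor X, MAX dimerization or MAX interactor. A description that names MAX in other words, such as protein max-like, did not meet the rule. No description in the table held N-myc proto-oncogene, either factor X wording or MAX interactor. The members may therefore not be the whole family. Of 13679 genes, 8 met this rule. They comprised 4 Myc transcription factors, namely LOC105917474 and LOC105916769 (both protein L-Myc-1b-like), LOC105922834 (transcriptional regulator Myc-1-like) and LOC105918977 (transcriptional regulator Myc-2-like), and 2 MAX dimerization proteins, mxd1 and mxd3. Another 2 genes matched only through a word in their names. They were LOC105915432 (C-myc promoter-binding protein-like) and rlf (rearranged L-myc fusion). The wording of the descriptions set the members, but the family was selected on the measured difference of LOC105917474 between the hemispheres, so that difference is given as a description without a test.

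Myc proteins are basic helix-loop-helix leucine zipper transcription factors that bind E-box DNA as heterodimers with MAX, and in mammals they are best known for driving genes of growth, ribosome production and the cell cycle. Mxd proteins and MNT compete for MAX and repress the same kind of sites. Myc transcripts are short-lived in mammalian cells and are among the classical early-response genes to growth factors.

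The lesioned group held the hemispheres penetrated by a sterile syringe needle through the optic tectum and tegmentum into the hypothalamus of anesthetized adults, and the intact group held the opposite hemisphere of the same 10 fish. No allele, transgene or drug distinguished the groups, and all fish had received the anesthetic 2-phenoxyethanol. Uninjured fish were not among these libraries, so the intact hemisphere is a control within an injured animal. The labels put every lesioned hemisphere on the right and every intact one on the left, whereas the methods of the study divide the sides equally between the groups. By the labels, side and lesion cannot be told apart.

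The 20 libraries held 9213580 to 11070103 counts on listed genes, with a median of 10175715.5 in lesioned and 10110917.5 in intact hemispheres. On the first principal component (13.5% of the variance) the intact library of fish 3 stood apart, at 41.3 against -15.4 to 18.1 for the lesioned libraries and -22.4 to 10.3 for the other intact ones, and member results are given with and without fish 3. Neuronal markers summed to 5817 to 6898 CPM (counts scaled to a common library total) in lesioned and 5415 to 7025 CPM in intact libraries. Over all genes tested, 1.28% were called higher and 0.0951% lower. Of 8 microglial markers, gpr34 alone was called lower, 6 had a negative and 2 a positive fold change, and none was at 0 in all libraries. An unadjusted p under 0.05 in edgeR's test was reached by 4 of the 8, beside 1229 of the 10513 genes tested. These were gpr34 (-0.51), csf1r (-0.26), lcp1 (-0.17) and LOC105918495 (-0.10), all lower in lesioned hemispheres on the log2 scale. The microglial list summed to 225 to 390 CPM in lesioned and 230 to 449 CPM in intact libraries. Of 4 tested endothelial markers, LOC105915527 (claudin-5-like) was called higher, and the other 3 had negative log2 fold changes and no call, namely cldn5 (-0.13, with an unadjusted p under 0.05), kdr (-0.02) and LOC105933301 (-0.01). Muscle markers reached 136 CPM in 1 lesioned library, against 16.1 CPM at most in intact ones. The muscle marker mylpf was highest in lesioned fish 5, at 60.1 CPM. The erythrocyte marker hemgn had 0.61 (adjusted p = 0.379 in edgeR's test) and the glial marker mbp -0.21 (adjusted p = 0.311). Of 7 tested glial markers 0 were called, 2 had a positive and 5 a negative log2 fold change. The positive ones were LOC105919068 (excitatory amino acid transporter 2-like, 0.42) and slc1a2 (0.03). The more highly counted LOC105933411 (myelin basic protein-like) had -0.03. Erythrocyte markers summed to 6.04 to 19.1 CPM in lesioned and 5.00 to 19.4 CPM in intact libraries. Glial markers summed to 13829 to 20556 CPM in lesioned and 14431 to 18725 CPM in intact libraries. These sums were scaled by library totals. The part of these cell types in the Myc results was not tested, and in whole tissue fewer cells of a type and less RNA per cell cannot be told apart.

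The Myc transcription factors LOC105922834 and LOC105918977 were called higher in the lesioned hemisphere. LOC105917474, on whose difference the family was selected, was also higher and is given without a test. The L-Myc gene LOC105916769 and the Mxd genes were not called, nor were myc itself and the MAX partner, which lie outside the rule. Levels are CPM scaled by TMM normalization, and all fold changes are lesioned over intact on the log2 scale from edgeR's quasi-likelihood fit with fish as a block. A gene was called at an adjusted p of 0.1 or less over the 10513 genes that passed the filter on low counts. All 8 members passed it. With LOC105917474 set aside, 2 of the other 7 members were called higher, beside 1.28% of all genes tested. None was called lower (0.0951% of all genes), and DESeq2 also called none lower. All 7 members other than LOC105917474 had a positive fold change, beside 4740 of the 10513 genes tested. Those of mxd3 (0.02) and rlf (0.0052) lay near 0 and turned sign in other fits. In none of the 8 members were the groups free of overlap (0.0666% of all genes).

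LOC105917474, an L-Myc gene that RefSeq names mycla in the MU-UCD_Fhet annotation, had 372 to 560 counts in lesioned and 301 to 422 counts in intact libraries. Its level was 37.2, 50.1 and 55.7 CPM (lowest, median, highest) in lesioned hemispheres, against 28.8, 33.4 and 38.6 CPM in intact hemispheres. Of the 10 lesioned hemispheres, 9 lay above the highest intact one, and the exception was that of fish 2. L-Myc is the Myc paralog first known from lung tumours in humans, and it is expressed in the developing nervous system of mammals.

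The log2 fold change of LOC105917474 was 0.51 (standard error 0.04), or 1.43-fold. Single fish ranged from 0.27 in fish 2 to 0.76 in fish 1, with an SD of 0.14 over 10 fish, and all 10 were positive. The same was true of 0.837% of all genes tested. Its spread was ordinary for its level. The SD of the per-fish log2 ratios exceeded that of 51.0% of the 1000 tested genes closest in mean level, and the SD of log2 CPM over intact hemispheres exceeded that of 42.9%. Without fish 3 its log2 fold change was 0.50.

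**Figure D1:**
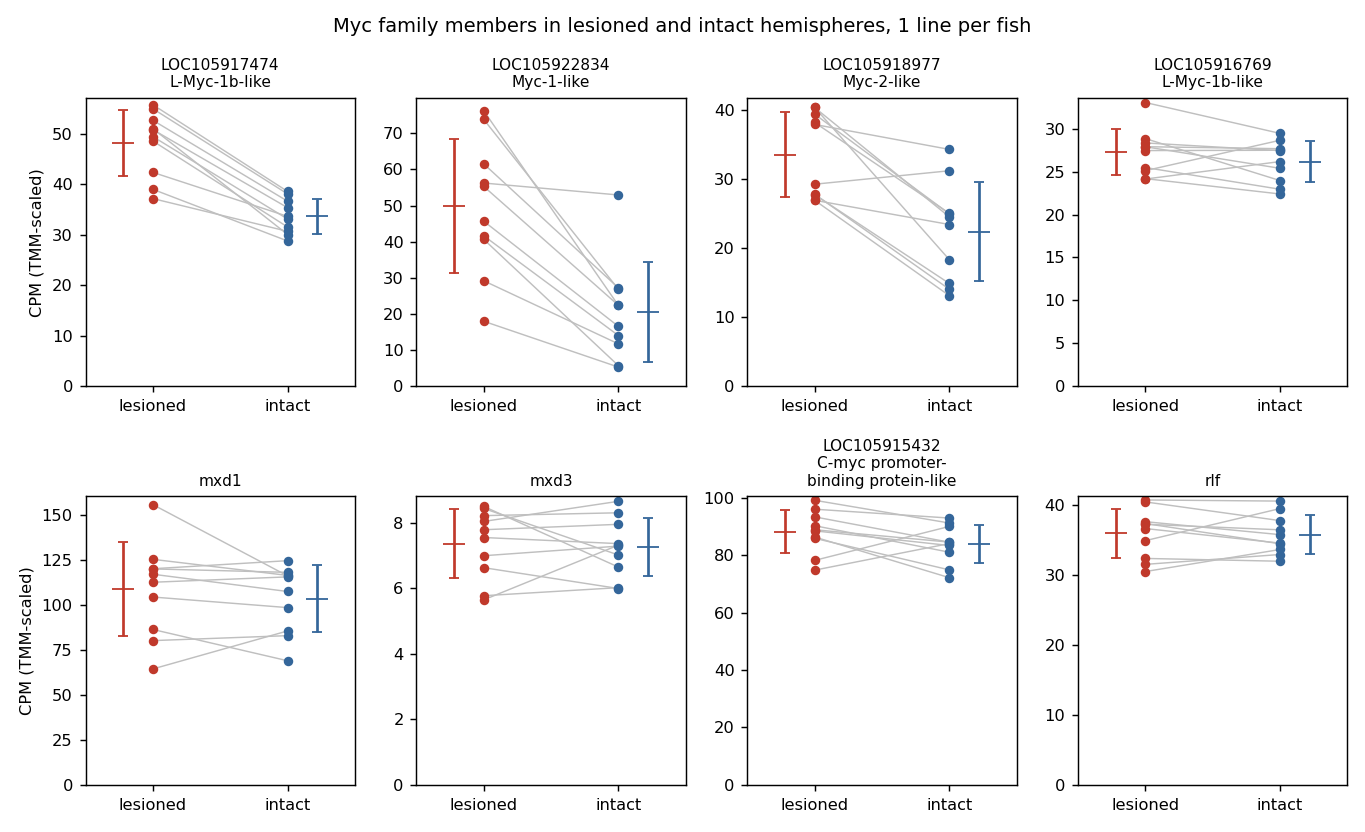
CPM of each of the 8 members in the lesioned (red) and intact (blue) hemisphere, with a grey line joining the hemispheres of each of 10 fish and bars for the mean ± SD. Every axis starts at 0. All lines of LOC105917474 and LOC105922834 fall toward the intact side, 9 of 10 do so in LOC105918977, and lines of the other 5 members run in both directions.

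LOC105922834, a transcriptional regulator Myc-1-like gene with no other name in RefSeq, showed the largest fold change of the 8 members. Its level was 18.02, 50.5 and 76.2 CPM (lowest, median, highest) in lesioned hemispheres, against 5.35, 19.5 and 52.9 CPM in intact hemispheres. The groups overlapped, since 5 lesioned hemispheres lay above the highest intact one, that of fish 5. The log2 fold change was 1.40 (standard error 0.17), or 2.63-fold (edgeR's quasi-likelihood test, adjusted p = 0.000603), and the gene was higher in 10 of 10 fish. Without fish 3 it was 1.37 (adjusted p = 0.00221 in the same test).

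The response of LOC105922834 differed widely from fish to fish. In fish 1 it had 40.7 CPM in the lesioned and 5.73 CPM in the intact hemisphere, a log2 ratio of 2.79. In fish 5 it had 56.2 CPM in the lesioned and 52.9 CPM in the intact hemisphere, a log2 ratio of 0.09. The other 8 fish lay between 1.17 and 1.76. The lesioned level of fish 5 lay above the lesioned median, and its intact level was the highest of the intact levels.

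The intact hemisphere of fish 5 was also high for other genes of the response. Over the 132 genes other than members that were called higher, its median deviation from the intact mean was 0.33 on the log2 scale, against -0.21 to 0.12 in the other intact hemispheres. The part of this in the LOC105922834 ratio was not tested. The log2 fold change was 1.57 without fish 5 and 1.28 without fish 1, and both were called (adjusted p = 9.2e-06 and 0.000684 in edgeR's test). Without the fish block, however, it was 1.28 with an adjusted p of 0.145.

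LOC105918977, described as transcriptional regulator Myc-2-like and named mych by RefSeq, belongs to a Myc type that is known from zebrafish. Its level was 26.9, 33.6 and 40.4 CPM (lowest, median, highest) in lesioned hemispheres, against 13.1, 24.0 and 34.3 CPM in intact hemispheres. Again 5 lesioned hemispheres lay above the highest intact one. The log2 fold change was 0.61 (standard error 0.11), or 1.53-fold (edgeR's quasi-likelihood test, adjusted p = 0.0123). It was 0.56 without fish 3 (adjusted p = 0.0287), and without the fish block it was 0.58 with an adjusted p of 0.235.

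LOC105918977 was higher in 9 of 10 fish. Fish 6 was the exception, with 29.3 CPM in the lesioned and 31.2 CPM in the intact hemisphere. Ratios of the other fish ranged from 0.14 in fish 5 to 1.13 in fish 3. Fish 5 and fish 6 had the highest intact levels of this gene, 34.3 and 31.2 CPM.

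**Figure D2:**
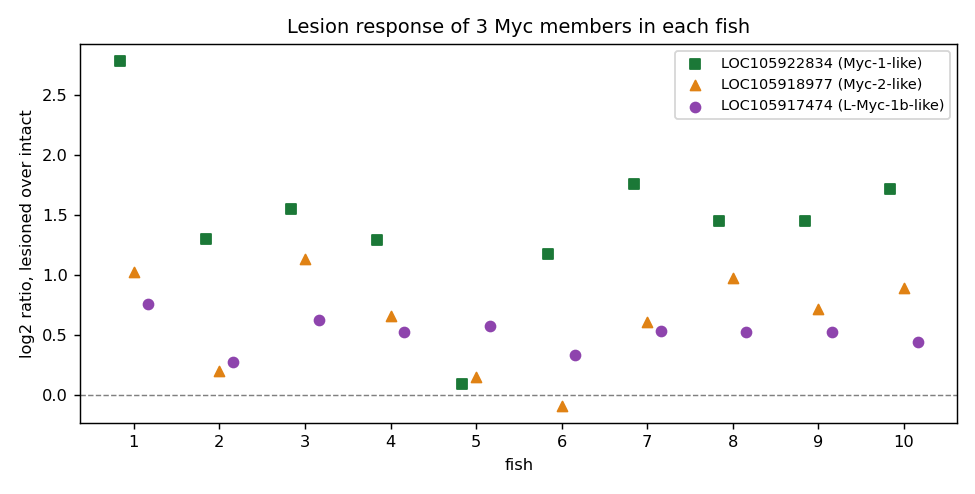
Log2 ratio of lesioned over intact CPM (y axis) in each of 10 fish (x axis) for LOC105922834 (squares), LOC105918977 (triangles) and LOC105917474 (circles). The circles keep between 0.27 and 0.76, while the squares span 0.09 to 2.79 and the triangles -0.09 to 1.13.

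LOC105916769 is the second gene described as protein L-Myc-1b-like, and RefSeq names it myclb. It was not called. Its level was 24.1, 27.7 and 33.0 CPM (lowest, median, highest) in lesioned hemispheres, against 22.4, 26.8 and 29.4 CPM in intact hemispheres. The log2 fold change was 0.06 (standard error 0.05, 95% interval -0.04 to 0.16, adjusted p = 0.678 in edgeR's test), and it was positive in 7 of 10 fish. Fish 4, fish 8 and fish 1 had negative ratios, and without fish 3 the log2 fold change was 0.04. How reads that match both L-Myc genes were counted is not given in the sources used here, so exchange of reads between these copies was not tested.

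The Myc members other than LOC105917474 were compared with each other within fish, which gave 3 pairs. The gene myc, outside the rule, was not among them. The mean log2 ratio of LOC105922834 exceeded that of LOC105918977 by 0.83 ± 0.51 (SD, n = 10 fish), in 9 of 10 fish (exact permutation test by sign flips, two-sided, p = 0.00391, adjusted p = 0.00586 over 3 pairs). It exceeded that of LOC105916769 by 1.40 ± 0.69, also in 9 of 10 fish (exact sign-flip permutation test, p = 0.00391, adjusted p = 0.00586). LOC105918977 exceeded LOC105916769 by 0.57 ± 0.43 in 9 of 10 fish (exact sign-flip permutation test, p = 0.00586, adjusted p = 0.00586). The smallest p that 10 fish allow in this test is 0.00195. The test asks whether a mean difference is 0 and does not measure the spread between fish. Differences in single fish ran from -0.06 to 1.76, from -0.05 to 2.79 and from -0.14 to 1.09, in the order of the pairs above.

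The Myc genes also differed in how far their level varied between fish before any comparison of hemispheres. Over intact hemispheres, the highest level of LOC105922834 was 9.89 times the lowest, whereas this factor was 2.61 for LOC105918977, 1.34 for LOC105917474 and 1.31 for LOC105916769. The SD of log2 CPM in intact hemispheres was 1.01 for LOC105922834, larger than in 98.9% of the 1000 tested genes closest in mean level, which had a median SD of 0.18. It was 0.48 for LOC105918977, larger than in 93.0% of the genes at its level. For LOC105916769 it was 0.13, larger than in 24.4%. In lesioned hemispheres the SD was 0.63 for LOC105922834 and 0.27 for LOC105918977.

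Fish with much LOC105922834 in the intact hemisphere also had much LOC105918977. Fish 5 was highest and fish 1 and fish 10 were among the 3 lowest for both genes. Over 10 intact hemispheres, log2 CPM of the 2 genes correlated with Pearson's r = 0.85 (permutation test with 100000 resamples, p = 0.00203, adjusted p = 0.0244 over 12 relations) and Spearman's rho = 0.84 (p = 0.00373, adjusted p = 0.0448 in the permutation test). Without fish 1 and fish 10, the hemispheres farthest from the median log2 CPM of LOC105922834, r was 0.72, with fish 5 kept. In the relations below, the 2 hemispheres left out were likewise the farthest for the gene named first. The 132 genes other than members that were called higher had a similar order over intact hemispheres. Their median deviation from the intact mean was highest in fish 5 (0.33) and lowest in fish 10 (-0.21), fish 3 (-0.15) and fish 1 (-0.12). The relation is therefore not shown to be particular to these 2 genes. The points also share the dissection and the scaling of each library, and the part of each of these was not tested.

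In lesioned hemispheres the same pair had r = 0.62 (permutation test, p = 0.0526, adjusted p = 0.158) and rho = 0.60 (adjusted p = 0.225), and r was 0.45 without fish 2 and fish 10. The 12 relations covered the 6 pairs of Myc members in each group and were chosen after the levels had been seen. No other of them had an adjusted permutation p under 0.1. LOC105917474 and LOC105922834 had r = 0.71 in lesioned hemispheres (permutation test, adjusted p = 0.120), and 0.11 without fish 2 and fish 10. In intact hemispheres they had r = 0.64 (adjusted p = 0.158), and 0.51 without fish 7 and fish 10.

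**Figure D3:**
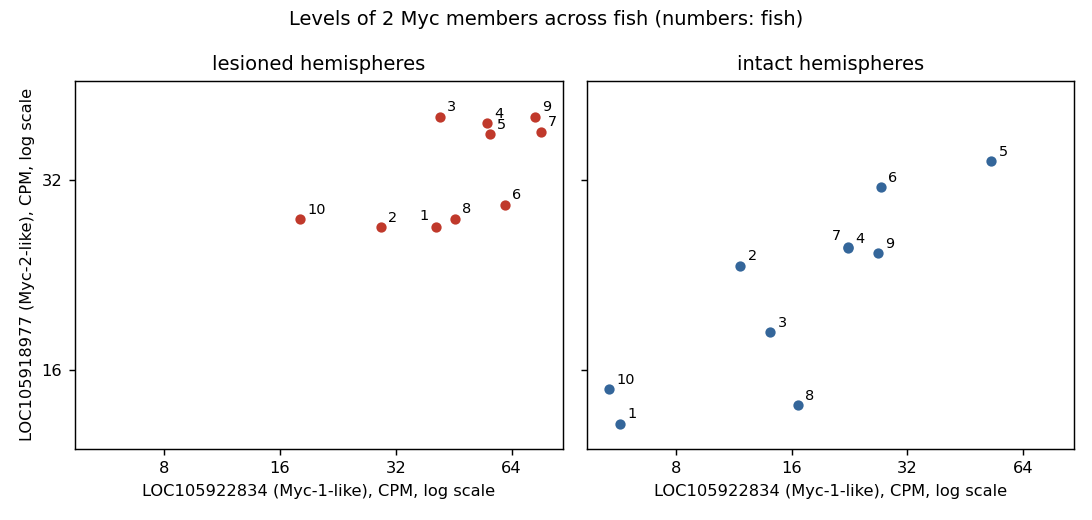
CPM of LOC105922834 (x axis) and LOC105918977 (y axis), both on log scales, in 10 lesioned (left) and 10 intact (right) hemispheres, with the number of each fish. In intact hemispheres the points run from fish 1 and fish 10 at the lower left to fish 5 at the upper right (r = 0.85), and in lesioned hemispheres the range of both genes is narrower (r = 0.62).

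The gene listed as myc itself, MYC proto-oncogene, did not enter by the rule because its description is worded differently. It was looked up with the other genes named for Myc, MAX or MLX once the table had been read. It had 32.3 ± 4.19 CPM in lesioned and 30.9 ± 2.96 CPM in intact hemispheres (mean ± SD, n = 10 fish). Its log2 fold change was 0.06 (standard error 0.05, 95% interval -0.06 to 0.18, adjusted p = 0.743 in edgeR's test), with 7 of 10 fish positive. Of the lesioned hemispheres, 2 lay above the highest intact one.

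The MAX dimerization proteins repress E-box genes as partners of MAX. mxd1 had 64.4, 115 and 156 CPM (lowest, median, highest) in lesioned hemispheres, against 68.9, 111 and 124 CPM in intact hemispheres. On the log2 scale mxd1 differed by 0.06 (standard error 0.06, 95% interval -0.08 to 0.19, adjusted p = 0.783 in edgeR's test), and it was positive in 6 of 10 fish. The ratios of mxd1 ran from -0.41 in fish 2 to 0.42 in fish 3, and their SD of 0.23 exceeded that of 93.4% of genes at its level. Without fish 3 the log2 fold change of mxd1 was 0.014.

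mxd3, which in mammals marks proliferating progenitors, was sparse. It had 5.64, 7.66 and 8.49 CPM (lowest, median, highest) in lesioned hemispheres, against 5.99, 7.30 and 8.65 CPM in intact hemispheres, from 55 to 92 counts per library. For mxd3 the log2 fold change was 0.02 (standard error 0.08, 95% interval -0.15 to 0.18, adjusted p = 0.967 in edgeR's test), and its sign turned without fish 4 or fish 9. Without fish 3 it was 0.03. That interval is not a limit of detection, and the smallest change that could be called at this depth was not tested.

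MAX, the shared partner of Myc and Mxd proteins, is listed as LOC105938399 (protein max-like). It had 53.8 ± 3.55 CPM in lesioned and 53.2 ± 4.41 CPM in intact hemispheres (mean ± SD, n = 10 fish). Its log2 fold change was 0.02 (95% interval -0.05 to 0.09, adjusted p = 0.898 in edgeR's test), positive in 5 of 10 fish, and its sign turned without fish 7. The MAX-binding repressor MNT is listed as LOC105939194, with 15.01 ± 2.51 CPM in lesioned and 14.96 ± 3.07 CPM in intact hemispheres. Its log2 fold change was 0.01 (95% interval -0.14 to 0.16, adjusted p = 0.977), and its sign turned with upper quartile scaling and without fish 1, 8, 9 or 10.

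**Figure D4:**
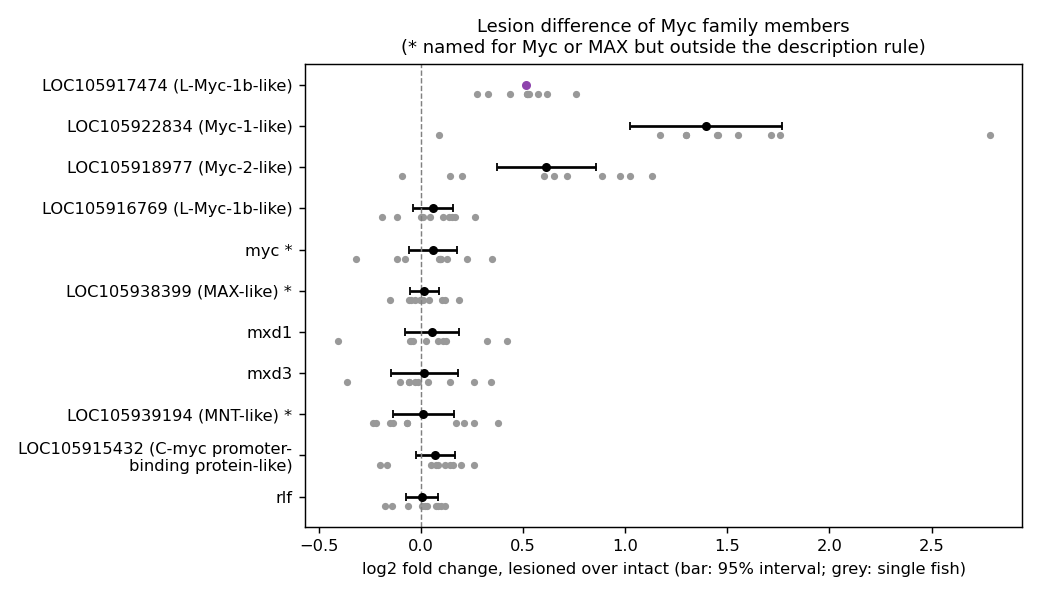
Log2 fold change of lesioned over intact (x axis) for the 8 members and for myc, LOC105938399 (MAX-like) and LOC105939194 (MNT-like), which fall outside the rule (asterisks). Bars are 95% intervals and grey points are single fish. LOC105917474, on whose difference the family was selected, is drawn without an interval. The intervals of LOC105922834 and LOC105918977 lie above 0 and those of the other 8 genes include 0.

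The remaining 2 members are not Myc or MAX proteins. LOC105915432 is named after a protein that binds the c-myc promoter, whose human counterpart is a DENN-domain exchange factor for a Rab GTPase. It had 88.1 ± 7.46 CPM in lesioned and 83.8 ± 6.66 CPM in intact hemispheres (mean ± SD over 10 fish). Its log2 fold change was 0.07 (95% interval -0.02 to 0.16, adjusted p = 0.572 in edgeR's test). rlf encodes a zinc finger protein, and its human counterpart was found fused to L-Myc in small cell lung cancer. It had 35.9 ± 3.54 CPM in lesioned and 35.7 ± 2.82 CPM in intact hemispheres. In rlf the log2 fold change was 0.0052 (95% interval -0.07 to 0.08, adjusted p = 0.982), and its sign turned under upper quartile scaling, under total counts and without fish 4, 7, 8 or 9. Without fish 3, LOC105915432 had 0.10 and rlf had 0.0045. Neither was called under any of the 16 other fits.

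Among the other genes named for Myc or MLX, none was called (edgeR's quasi-likelihood test, beside 1.28% called higher and 0.0951% lower over all genes tested). Together with myc, MAX and MNT these are 10 genes, of which 9 were tested, 5 had a positive and 4 a negative fold change, and 1 had an unadjusted p under 0.05. That gene was LOC105919107 (myc-associated zinc finger protein-like), at 0.10 on the log2 scale (standard error 0.03, adjusted p = 0.273), positive in 9 of 10 fish. maz, listed as MYC associated zinc finger protein, had 0.11 (adjusted p = 0.462), and mlxip, a glucose-responsive partner of MLX, had -0.0061 (adjusted p = 0.982). The Myc box-dependent-interacting proteins LOC105916432 and LOC105931896, whose mammalian relative BIN1 shapes membranes, had -0.05 (adjusted p = 0.943) and -0.0048 (adjusted p = 0.982). LOC105932371 (myc target protein 1 homolog) had -0.08 (adjusted p = 0.723), and LOC105925003 (MLX-interacting protein-like) failed the filter with a median of 2.5 counts in lesioned and 3.0 counts in intact libraries.

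Myc cofactors and turnover factors were looked at as a list, in which 10 of 20 gene names sought had a gene. Of the 12 genes tested, 0 were called by edgeR and 0 by DESeq2, and 1 had an unadjusted p under 0.05. Over all genes tested, edgeR called 1.28% higher and 0.0951% lower, so 0 calls in a list this short say little about its genes. The median log2 fold change of the list was 0.0046, beside -0.0087 over all genes tested. The kinase gsk3b and the ubiquitin ligase subunit fbxw7, which mark Myc protein for degradation in mammals, had log2 fold changes of 0.05 (adjusted p = 0.629) and -0.02 (adjusted p = 0.925 in edgeR's test). Other leucine zipper factors of the same structural class were looked at likewise, with the same limit. None of 7 tested genes was called by either tool, 1 had an unadjusted p under 0.05, and the median was 0.0097. Their most highly counted members were srebf2 (0.07, adjusted p = 0.392) and srebf1 (0.02, adjusted p = 0.864), which control sterol and fatty acid synthesis.

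Genes that Myc is known to regulate in mammals were looked at in 2 groups. Of 26 gene names sought for ribosome biogenesis, 16 had a gene in the list. For growth, metabolism and the cell cycle it was 10 of 22, so both lists are partial. Of 18 tested genes of ribosome biogenesis, 0 were called by edgeR and 0 by DESeq2, where edgeR called 1.28% of all genes higher and 0.0951% lower. Of these 18 genes, 3 had a positive and 15 a negative fold change, and 1 had an unadjusted p under 0.05. Their median was -0.03. ncl, which encodes nucleolin, had 0.01 (standard error 0.02, adjusted p = 0.867 in edgeR's test), and LOC105919370 (nucleophosmin-like) had -0.02 (adjusted p = 0.825). Over all genes tested, 4740 had a positive and 5773 a negative fold change.

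Of 10 tested target genes of growth, metabolism and the cell cycle, 1 was called higher and 0 lower, beside 1.28% and 0.0951% of all genes tested. The median log2 fold change was -0.03. The list held LOC105927087 (cyclin-dependent kinase inhibitor 1-like, 0.17, adjusted p = 0.524 in edgeR's test), a kind of gene that Myc represses in mammals. The called gene was LOC105925184 (transferrin receptor protein 1-like), the receptor that brings transferrin-bound iron into cells. It had 30.9, 38.4 and 63.0 CPM (lowest, median, highest) in lesioned hemispheres, against 26.1, 31.9 and 53.2 CPM in intact hemispheres. The difference was 0.27 on the log2 scale (standard error 0.06, adjusted p = 0.0306 in edgeR's test), positive in 10 of 10 fish, and without the fish block it was not called. A second gene with that description, LOC105935749, had 0.0071 (adjusted p = 0.977). Lactate dehydrogenase A (LOC105918221) had -0.03 (adjusted p = 0.657) and nampt, of NAD synthesis, had -0.02 (adjusted p = 0.864).

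The genes whose pattern over the 20 libraries was closest to that of LOC105917474 were sought by the root mean square difference of log2 CPM centred on each gene's mean. Closest was LOC105932456 (midnolin-like), whose mammalian counterpart carries early-response proteins to the proteasome, at 0.15, against a median of 0.36 over 10512 genes. It had 195 ± 16.9 CPM in lesioned and 153 ± 15.3 CPM in intact hemispheres (mean ± SD, n = 10 fish). Next were LOC105919975 and LOC105930718, both uncharacterized, LOC105937858 (protein FAM110A-like), and zfp36l2, which encodes a protein that binds AU-rich elements and promotes mRNA decay, at 0.18 to 0.19. Since the measure includes the lesion difference by which LOC105917474 was chosen, these genes are a description only. The measure does not scale the log2 deviations, so a gene that varies little can rank closer than a gene with a larger response. Of the genes named for Myc, myc ranked closest at 126 of 10512, whereas LOC105916769 ranked 1364, LOC105918977 ranked 4346 and LOC105922834 ranked 10088. rlf, with a log2 fold change of 0.0052 and no call, ranked 1183. These ranks therefore do not show which Myc genes share the lesion response.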

How the data were processed

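Paired hemispheres of 10 mummichogs gave 20 RNA-seq libraries, grouped by the treatment label. Adapters were removed with cutadapt (1.11 in the submitters' processing notes), and STAR alignments to the Fundulus heteroclitus genome were tallied by gene through HTSeq. The strand setting is not given in the sources used here. The labels and the paper name different library kits. The deposited counts are whole numbers without normalization. The authors also deposited their own DESeq2 comparison, namely a mean signal, log2 fold changes with standard errors, a score (the Wald statistic) and p-values, none of which was used.

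Of 16264 entries, 2585 transfer RNAs (at most 0.00458% as many counts as the genes) were left out. The test was that of edgeR 4.0.16 under R 4.3.3 (filterByExpr with minimum count 10 and total 15, TMM, quasi-likelihood test, fish as a block, Benjamini-Hochberg over 10513 genes). The standard error is the absolute log2 fold change over the root of the F statistic. Both hemispheres come from 1 animal, and their deviations from group means correlated at 0.385 to 0.731, against -0.207 to 0.201 between different fish. For the ratio within a fish, 2 was the prior count added before CPM were put on the log2 scale. On simulated counts edgeR recovered 85% of log2 changes of 0.5 and 100% of log2 changes of 1. Unchanged genes made up 7.04% of its 199 calls. The changes were put on 200 genes drawn at random. The simulated effect of fish had the same SD for every gene and was shared by both hemispheres of a fish. The SD of the log2 ratios of LOC105922834 and LOC105918977 exceeded that of 98.5% and 95.7% of genes at their level. Recovery for genes that vary this much was not tested.

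The members and lists were chosen with earlier results of these data known, so their calls are not independent evidence. All members were named, and of each list the called genes and, where fewer than 2 were called, the 2 with the highest mean CPM, besides the 5 genes most like LOC105917474. The other genes named for Myc, MAX or MLX and LOC105935749 were added after the table had been read. LOC105927087 was also named outside this naming rule. From the lists, 5 genes that matched only in part of their name were left out before their values were seen. RefSeq names come from the MU-UCD_Fhet annotation, which listed 7 of the 8 members. Its assembly differs from the one behind the counts, and coordinates were therefore left out. Alternatives were 3 other scalings, no filter, DESeq2 1.42.0, no block, a cutoff of 0.05 and leaving out each fish.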

Additional observations from a re-analysis of the deposited data

Results flagged for a closer look

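In the 8 members, log2 ratios, levels in CPM and the same levels on the log2 scale were searched for a fish far from the others, in 40 groups of 10 values. Chance alone passes Dixon's limit in about 1 in 20 groups, which comes to 2 of 40, and 2 passed, both in CPM. The intact hemisphere of fish 5 had 52.9 CPM of LOC105922834, against 5.35 to 27.2 CPM in the other intact hemispheres, a gap of 0.54 of the whole range. The lesioned hemisphere of fish 9 had 33.0 CPM of LOC105916769, against 24.1 to 28.8 CPM in the other lesioned hemispheres, a gap of 0.47 of the range. On the log2 scale neither level passed the limit, and no log2 ratio did.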

How the results depend on the processing

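Of the 7 members other than LOC105917474, 2 were called higher, and the number was 2 under every alternative but one. Without the replicate block 0 of the 7 were called, LOC105922834 was at 1.28 on the log2 scale (adjusted p = 0.145) and LOC105918977 at 0.58 (adjusted p = 0.235), and the growth and metabolism list had 0 calls in place of 1. Over all alternatives the adjusted p of LOC105922834 ranged from 3.63e-10 to 0.145 and that of LOC105918977 from 2.61e-05 to 0.235. Over all genes, 56 were called higher and 1 lower without the block, in place of 135 and 10, and 37 were called lower without fish 3. The log2 fold change of LOC105917474 stayed between 0.49 and 0.54, and the 3 paralog differences kept their calls in all 12 alternatives. Genes near 0 turned sign. With upper quartile scaling rlf had -0.0081 and LOC105939194 had -0.0017, and with total counts rlf had -0.0035. Leaving out each fish gave -0.021 to 0.060 for mxd3, -0.0056 to 0.026 for rlf, -0.026 to 0.039 for LOC105939194 and -0.0010 to 0.035 for LOC105938399. No scaling moved the median of all genes by more than 0.013 on the log2 scale. With 55 to 92 counts per library, mxd3 had the lowest median count of the members.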
